A study of Mus musculus with 7 samples.

Results

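The retinal pigment epithelium (RPE) is the pigmented cell layer between the photoreceptors and the choroid, and 9 genes of its ion and water transport are described here: the chloride channel genes Best1, Clcn2 and Clic6, the potassium channel gene Kcnj13, the sodium pump subunit genes Atp1b1 and Atp1b2, the bicarbonate and pH genes Slc4a5 and Car14, and the water channel gene Aqp1. They were taken by symbol from the 21861 rows of a table of read counts; all 9 were present, each on 1 row, and all 9 passed the filter on low counts. The libraries came from RPE of aged mice taken 12 weeks after an adeno-associated virus (AAV) vector had been given: 3 libraries from RPE that received AAV-GFP, the control vector, and 4 from RPE that received AAV-GSTA4, whose cargo was a glutathione transferase that conjugates lipid aldehydes. Strain, sex, age, the promoter of the vectors and whether a library pooled several eyes are not given in the sources used here, and nothing says that replicates came from separate animals, so p-values measure the spread between these samples. The question addressed is how these transport genes stood in aged RPE that received AAV-GSTA4 against aged RPE that received AAV-GFP.

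The RPE moves chloride, potassium, bicarbonate and water from the subretinal space towards the choroid, which keeps the retina attached and the ion milieu around the photoreceptors steady. Unlike most epithelia it carries its sodium pump, a complex of one alpha and one beta subunit, on the apical side, and apical potassium channels return the potassium that the pump takes in. Bicarbonate cotransporters and carbonic anhydrases handle the acid and carbon dioxide that the retina produces, and chloride leaves through channels of the basolateral membrane.

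Libraries held 15329181 to 28998964 counts. In the label check, the hGSTA4 row had 1 to 3 counts in the AAV-GFP libraries and 45 to 5239 in the AAV-GSTA4 libraries, whereas d2EGFP overlapped between the groups. The low value of 45 belonged to AAV-GSTA4 replicate 3, and every other library of that group held at least 1184. For d2EGFP, AAV-GFP replicate 1 held 99 counts, fewer than the 163 of AAV-GSTA4 replicate 1. RPE markers were present in every library: the 20 of them summed to 24938 to 74920.1 CPM (counts scaled to a common library size with TMM, the trimmed mean of M-values) in AAV-GFP and to 65325 to 116315 CPM in AAV-GSTA4, and none was at 0 (exact permutation test, two-sided, on log2 sums, p = 0.0857). Log2 fold changes were positive for 15 of the 20 RPE markers and negative for Pmel, Tyrp1, Dct, Mlana and Serpinf1. Rgr was the most abundant of these markers in every library, at 12273 to 61493 CPM. Rod photoreceptor RNA differed between the groups. The 20 rod markers summed to 18728 to 47938 CPM in AAV-GFP and to 9791 to 17237 CPM in AAV-GSTA4, without overlap (p = 0.0286 in the same exact permutation test, the smallest this design can give), and 0 of the 20 had a positive log2 fold change. AAV-GFP replicate 3 stood apart, with the lowest RPE sum and the highest rod sum, and its rod sum exceeded its RPE sum. AAV-GSTA4 replicate 2 stood apart in its 10 lens markers, which summed to 132759 CPM, above its RPE sum, against 3222 to 28018 CPM in the other libraries. In bulk tissue, fewer cells of a type and less RNA per cell cannot be told apart.

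Of the 9 genes, 7 stood higher on average in AAV-GSTA4 (positive log2 fold change, as for 44.6% of all genes). With library totals or RPE-marker scaling 5 did, as Best1 and Atp1b2 then turned negative. None reached an adjusted p under 0.05 in edgeR's quasi-likelihood test over 15075 genes, in which 0.0% of all genes passed. Clcn2 was higher and Aqp1 lower in AAV-GSTA4 at an unadjusted p-value under 0.05, which is 2 of 9 genes against a background of 11.9% of all genes tested (5.27% higher, 6.63% lower). Of the genes at that threshold, 44.3% were higher, a share that was 11.1% with library totals and 2.1% with RPE-marker scaling. The members' count was 1 without AAV-GFP replicate 2 or 3 or AAV-GSTA4 replicate 1 or 3, and 5 without AAV-GSTA4 replicate 2. Clcn2 and Aqp1 were also the genes whose groups did not overlap in TMM-scaled CPM, against 12.0% of all genes (6.44% higher, 5.61% lower). The median log2 fold change of the 9 genes was 0.58, and that of all genes was -0.07 (-0.37 with library totals, -0.75 with RPE-marker scaling). DESeq2 called 2.0% of the 10062 genes to which it gave an adjusted p, and 0 of the 8 members among them (Best1 had none). At an unadjusted p under 0.05 it had 4 members (Clcn2, Car14, Aqp1 and Slc4a5), against 14.5% of all genes there. Limma-voom with quality weights also had 4 (Clcn2, Car14, Aqp1 and Kcnj13), against 21.8% of all genes.

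**Figure D1:**
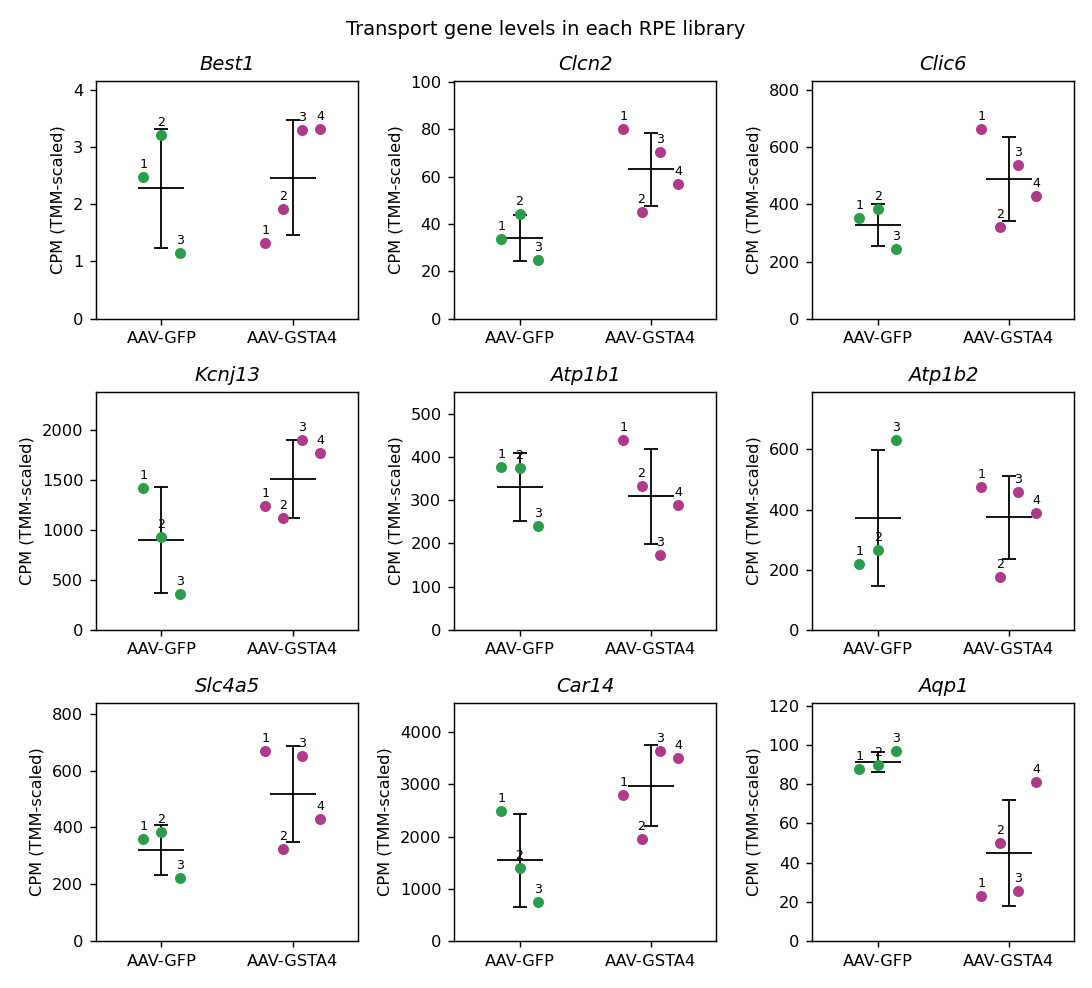
Level of each of the 9 transport genes, in TMM-scaled CPM, in 3 AAV-GFP and 4 AAV-GSTA4 libraries; each point is a library with its replicate number, the wide bar is the group mean and the whiskers are 1 SD. Clcn2 (24.6 to 44.3 CPM against 44.9 to 80.3 CPM) and Aqp1 (87.6 to 97.1 CPM against 23.2 to 81.3 CPM) are the panels in which the groups do not overlap.

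Levels of different genes were compared per kilobase of annotated exon, with exon bases shared with other genes included. Kcnj13 and Car14 were the most abundant, at 709 ± 417 and 608 ± 349 CPM per kb (SD, n = 3) in AAV-GFP and 1186 ± 304 and 1169 ± 306 CPM per kb (SD, n = 4) in AAV-GSTA4. The next group in AAV-GSTA4 comprised Clic6 (125 ± 37.6 CPM per kb), Atp1b1 (100.5 ± 35.8 CPM per kb), Atp1b2 (91.7 ± 33.6 CPM per kb) and Slc4a5 (89.4 ± 29.2 CPM per kb). Within each of these groups neighbours did not differ beyond their spread. Aqp1 (17.1 ± 10.3 CPM per kb) and Clcn2 (10.5 ± 2.58 CPM per kb) followed, and Best1 was lowest, at 0.882 ± 0.403 CPM per kb in AAV-GFP and 0.954 ± 0.390 CPM per kb in AAV-GSTA4. In AAV-GFP the order of the middle group was Atp1b1, Atp1b2, Clic6 and Slc4a5, from 107.5 ± 25.5 down to 55.2 ± 15.1 CPM per kb, with overlapping spreads between neighbours.

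Of the chloride channel genes, Clcn2 showed the clearest separation. It encodes a voltage-gated chloride channel whose loss in mice leads to degeneration of the retina, and lies at chr16:20702964-20717746 (GRCm38, minus strand). In replicate order, the AAV-GFP libraries held 33.6, 44.3 and 24.6 CPM of Clcn2 and the AAV-GSTA4 libraries 80.3, 44.9, 70.4 and 56.7 CPM. All 4 AAV-GSTA4 libraries were above all 3 AAV-GFP libraries, though AAV-GSTA4 replicate 2 was only just above AAV-GFP replicate 2. This was a log2 difference of 0.89 ± 0.28 (SE), or 1.85-fold, with an unadjusted p of 0.0109 and an adjusted p of 0.363 from edgeR, and an exact permutation p of 0.0571 on log2 CPM. Adjusted p-values over the alternatives ranged from 0.0970 in DESeq2 to 0.865.

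Clic6 encodes a chloride intracellular channel protein that is also abundant in choroid plexus, another fluid-moving epithelium, and lies at chr16:92485736-92541243 (plus strand). It was at 352, 385 and 244 CPM in AAV-GFP and at 665, 322, 537 and 429 CPM in AAV-GSTA4. Replicates 1, 3 and 4 of AAV-GSTA4 were above every AAV-GFP library and replicate 2 was not. The mean log2 difference was 0.58 ± 0.31 (SE; edgeR adjusted p = 0.480).

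Best1 encodes bestrophin-1, a calcium-activated chloride channel of the basolateral RPE membrane that is mutated in Best vitelliform macular dystrophy. The gene lies at chr19:9985174-10001633 (minus strand), and its exons overlap no other annotated gene. Only 24 to 90 reads per library fell on it, that is 2.47, 3.21 and 1.15 CPM in AAV-GFP and 1.32, 1.92, 3.29 and 3.32 CPM in AAV-GSTA4. The groups overlapped, with AAV-GSTA4 replicates 3 and 4 just above the highest AAV-GFP library and AAV-GFP replicate 3 lowest of all. Counting error alone gave an exact 95% Poisson interval of 0.738 to 1.71 CPM for AAV-GFP replicate 3. The log2 difference was 0.11 ± 0.60 (SE; 95% interval -1.24 to 1.46; edgeR adjusted p = 0.960), so that a 2-fold change in either direction was within the interval. It was -0.21 without AAV-GFP replicate 3.

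Kcnj13 encodes Kir7.1, the inwardly rectifying potassium channel of the apical RPE membrane, and lies at chr1:87386363-87394729 (minus strand). It was at 1415, 929.9 and 358 CPM in AAV-GFP and at 1237, 1117, 1900.3 and 1769 CPM in AAV-GSTA4. The groups overlapped: AAV-GFP replicate 1 was higher than AAV-GSTA4 replicates 1 and 2, and AAV-GFP replicate 3 was lowest of all. AAV-GSTA4 minus AAV-GFP came to 0.74 ± 0.45 on the log2 scale (SE; edgeR adjusted p = 0.523). It was 0.37 without AAV-GFP replicate 3, 1.23 without AAV-GFP replicate 1 and -0.14 with a rod marker score as covariate. Rod marker sums did not overlap between the groups, so here and below a fit with this covariate cannot cleanly separate rod RNA from group. Of its exon bases, 49.1% also lie in exons of Gigyf2 on the opposite strand. The strand setting of the counting is not given in the sources used here. Whether reads there were counted for Kcnj13, for Gigyf2 or for neither cannot be told, although Gigyf2 itself was at 79.8 to 144 CPM.

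Car14 encodes a membrane-bound carbonic anhydrase with an extracellular catalytic domain, found on RPE and Mueller glia, and lies at chr3:95897768-95904691 (minus strand). It was at 2497, 1397 and 740.2 CPM in AAV-GFP and at 2802, 1946, 3642 and 3503 CPM in AAV-GSTA4. Of the AAV-GSTA4 libraries, 3 were above every AAV-GFP library and replicate 2 was below AAV-GFP replicate 1. The difference was 0.94 ± 0.44 on the log2 scale, or 1.92-fold (SE; edgeR adjusted p = 0.433; exact permutation p = 0.0857). Without AAV-GFP replicate 1 it was 1.48, without AAV-GFP replicate 3 it was 0.62, and with the rod marker score as covariate it was 0.15. Exons of Aph1a, on the opposite strand at 12.8 to 16.1 CPM, cover 17.5% of its exon bases.

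Slc4a5 encodes NBCe2, an electrogenic sodium bicarbonate cotransporter that is also known from choroid plexus, and lies at chr6:83219828-83304945 (plus strand). It was at 358, 382 and 220.2 CPM in AAV-GFP and at 669.6, 325, 652 and 429 CPM in AAV-GSTA4. The pattern was that of Clic6, with AAV-GSTA4 replicate 2 among the AAV-GFP libraries and the other 3 above them. The groups differed by 0.70 ± 0.34 on the log2 scale, or 1.62-fold (SE; edgeR adjusted p = 0.445; exact permutation p = 0.171).

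The beta subunit genes of the sodium pump had log2 differences near 0. Atp1b1, which encodes the widespread beta-1 subunit (chr1:164437109-164458355, minus strand), was at 378, 375 and 241 CPM in AAV-GFP and at 440.4, 334, 174 and 289.5 CPM in AAV-GSTA4. It differed by -0.10 ± 0.33 on the log2 scale (SE; 95% interval -0.84 to 0.65; edgeR adjusted p = 0.928), and by 0.11 without AAV-GSTA4 replicate 3. Exons of Nme7, on the opposite strand, cover 18.7% of its exon bases. Atp1b2, which encodes the beta-2 subunit known from photoreceptors and glia (chr11:69599736-69605942, minus strand), was at 219.6, 267 and 633 CPM in AAV-GFP and at 474, 176, 459 and 389 CPM in AAV-GSTA4. AAV-GFP replicate 3, the library with the highest rod sum, was highest for Atp1b2 and second lowest for Atp1b1. Atp1b2 differed by 0.01 ± 0.44 on the log2 scale (SE; 95% interval -0.99 to 1.00; edgeR adjusted p = 0.997). Without AAV-GFP replicate 3 the value was 0.62, without AAV-GFP replicate 1 it was -0.26, and with the rod marker score as covariate it was 1.05. For both subunits the intervals include differences approaching 2-fold in at least one direction.

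The ratio of the CPM of Atp1b2 to that of Atp1b1 varied widely over the libraries. It was 0.581, 0.711 and 2.63 in AAV-GFP and 1.08, 0.527, 2.64 and 1.34 in AAV-GSTA4. High ratios thus occurred in AAV-GFP replicate 3 and in AAV-GSTA4 replicate 3, which had the highest and the third lowest rod sum.

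Aqp1, which encodes a water channel of epithelia, endothelia and red cells (chr6:55336432-55348555, plus strand), was the gene lower in AAV-GSTA4. It was at 87.6, 89.9 and 97.1 CPM in AAV-GFP, a mean of 91.5 ± 4.97 CPM (SD, n = 3), and at 23.2, 50.2, 25.3 and 81.3 CPM in AAV-GSTA4, a mean of 45.0 ± 27.1 CPM (SD, n = 4). The AAV-GFP libraries were tightly grouped and the AAV-GSTA4 libraries scattered, with replicate 4 close to the AAV-GFP range. Aqp1 differed by -1.02 ± 0.41 on the log2 scale (SE), with an unadjusted p of 0.0310 and an adjusted p of 0.384 from edgeR, and an exact permutation p of 0.0571. With the rod marker score as covariate the value was -1.86. Adjusted p-values over the alternatives ranged from 0.189 to 0.848.

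Markers of other cells in which Aqp1 is known were set beside it. The 6 red cell markers summed to 437 to 1039 CPM in AAV-GFP and 423 to 2473 CPM in AAV-GSTA4, with the highest sum in AAV-GSTA4 replicate 3, where Aqp1 was low. The 10 endothelial markers summed to at most 179 CPM in AAV-GFP and 65.7 CPM in AAV-GSTA4, and the 5 ciliary epithelium markers to at most 105 and 103 CPM. The endothelial maximum was that of AAV-GFP replicate 3 alone. AAV-GFP replicates 1 and 2 held at most 51.5 CPM, within or below the AAV-GSTA4 range (exact permutation test, p = 0.657). The ciliary sum was lowest in AAV-GSTA4 replicate 3 and next lowest in AAV-GSTA4 replicate 1, the libraries with the lowest Aqp1. Aqp4 and Slc4a4 made up most of the ciliary sum in every library, and Msx1, Zic1 and Zic2 were each lower than both. The sum therefore follows mainly Aqp4 and Slc4a4, and it is a weak measure of ciliary epithelium. In AAV-GSTA4 replicate 2 the ciliary sum was 103 CPM, above that of replicate 4, whereas Aqp1 was lower in replicate 2 than in replicate 4. No defining marker was at 0 in all libraries, and each of these sums overlapped between the groups. Log2 fold changes were negative for 9 of 10 endothelial markers (median -0.74) and for all 4 ciliary markers tested (median -0.46), and positive for all 6 red cell markers (median 0.74). Their part in the level of Aqp1 was not tested.

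**Figure D2:**
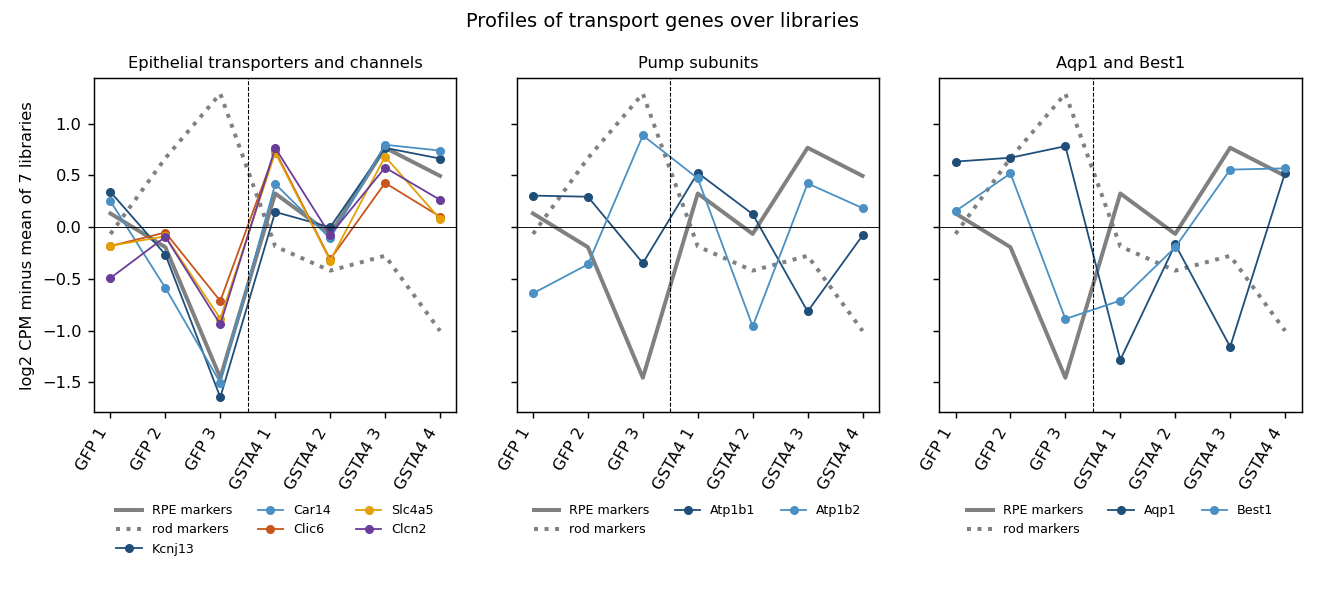
Log2 CPM of each gene minus its mean over the 7 libraries (y axis) in each library (x axis; a dashed line separates AAV-GFP from AAV-GSTA4), with the log2 summed CPM of the 20 RPE markers (grey line) and 20 rod markers (grey dots) on the same scale. Kcnj13, Car14, Clic6, Slc4a5 and Clcn2 dip in AAV-GFP replicate 3 with the RPE markers, while Atp1b2 is highest there and Aqp1 has its lowest values in AAV-GSTA4 replicates 1 and 3.

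How the genes varied with one another was measured as the root-mean-square distance between their log2 CPM profiles, each centred on its mean over the 7 libraries. Clic6 and Slc4a5 were the closest of the 36 pairs, at 0.12, followed by Clcn2 and Slc4a5 at 0.17 and by Kcnj13 and Car14 at 0.18. Aqp1 was in the 3 most distant pairs, at 1.40 from Car14, 1.34 from Kcnj13 and 1.31 from Clcn2. The ratio of Slc4a5 to Clic6 CPM was 1.02, 0.992 and 0.904 in AAV-GFP and 1.01, 1.01, 1.21 and 1.00 in AAV-GSTA4. These 2 genes, on different chromosomes, therefore had a ratio between 0.904 and 1.02 in all libraries but AAV-GSTA4 replicate 3. The ratio of Car14 to Kcnj13 CPM spanned 1.51-fold, with its highest value, 2.27, in AAV-GSTA4 replicate 1. These profiles share library depth and tissue composition, and they are a description of 7 libraries.

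Among 11102 other genes averaging 2 or more log2 CPM, those closest to the mean profile of the 9 genes were Dgcr6 (distance 0.05), Qdpr (0.09) and Ciapin1 (0.09). Their log2 fold changes were 0.31 ± 0.24, 0.39 ± 0.21 and 0.37 ± 0.24 (SE), with edgeR adjusted p of 0.609, 0.489 and 0.549. Genes closest to single members were listed after the values had been seen. Car14 was closest to Vipr2 (0.07), Tes (0.13) and Rgr (0.15), the last an opsin of the RPE. Slc4a5 was closest to Slc16a1 (0.10), which encodes a monocarboxylate transporter, and then to Clic6. Aqp1 was closest to Col23a1 (0.16), which encodes a transmembrane collagen, and to 2200002D01Rik (0.17) and Trim16 (0.17).

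The 9 genes were then expressed relative to the RPE itself, as log2 CPM minus the mean log2 CPM of the 20 RPE markers in the same library. On this scale 4 genes had a positive and 5 a negative difference of AAV-GSTA4 minus AAV-GFP. Clic6 and Slc4a5 differed by -0.00 and 0.12 (exact permutation test, two-sided, p = 1.00 and 0.743), against 0.58 and 0.70 in the TMM-scaled edgeR fit. Kcnj13, Clcn2 and Car14 differed by 0.36, 0.33 and 0.52 (exact p = 0.143, 0.400 and 0.0857). Against the RPE markers without the pigment genes these differences were 0.06, 0.04 and 0.22, and those of Clic6 and Slc4a5 were -0.30 and -0.18. Atp1b1, Atp1b2 and Best1 differed by -0.70, -0.49 and -0.43 (exact p = 0.229, 0.714 and 0.171). Against the RPE markers without the pigment genes they differed by -0.999, -0.79 and -0.73 (exact p = 0.114, 0.429 and 0.0571).

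Aqp1 differed most on this scale, by -1.77, and by -2.07 against the RPE markers without the pigment genes. Against that second reference its exact permutation p was 0.0571, the same as for Best1. It was at -3.14, -2.98 and -1.58 relative to the RPE markers in AAV-GFP and at -4.93, -3.81, -5.18 and -3.45 in AAV-GSTA4. It was the only one of the 9 genes whose groups did not overlap relative to the RPE markers, where 14.3% of all genes did not overlap (13.5% lower in AAV-GSTA4), and the exact permutation test gave p = 0.0571. Kcnj13 was the steadiest gene relative to the RPE markers, with a range of 0.75 over the libraries against 2.41 for its own log2 CPM. Atp1b2 and Aqp1 had the widest ranges, 3.12 and 3.60, larger than the 1.84 and 2.06 of their own log2 CPM.

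**Figure D3:**
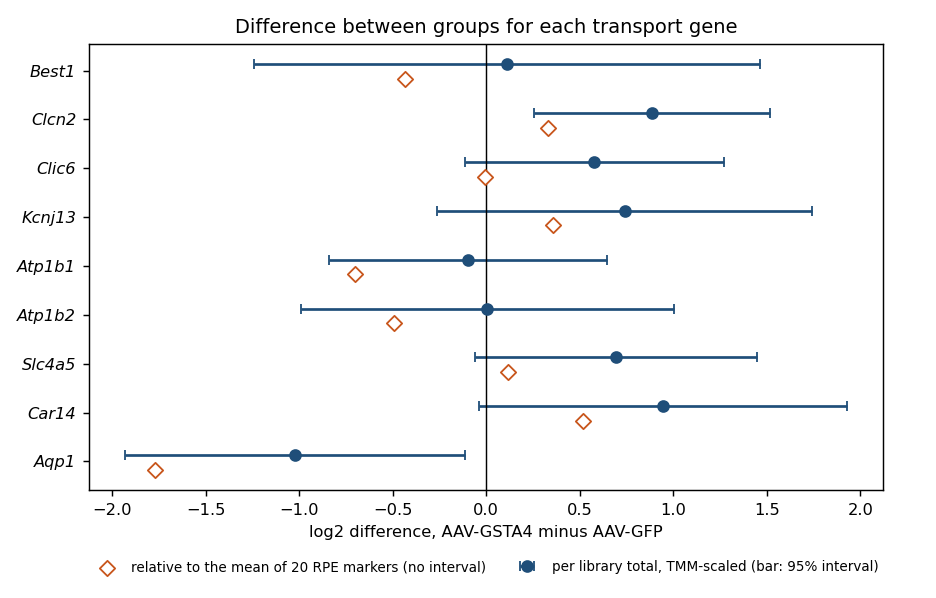
Difference of AAV-GSTA4 minus AAV-GFP on the log2 scale (x axis) for each of the 9 genes (y axis). Filled circles are edgeR log2 fold changes with 95% intervals; open diamonds are differences relative to the mean of the 20 RPE markers, which lie to the left of the circle for every gene shown and farthest from 0 for Aqp1, at -1.77.

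Short sites for factors of RPE identity were searched in the promoters. The upstream sequences of Kcnj13, Car14 and Best1 are shown, the 3 genes in which a match was found. RefSeq promoter entries (GRCm38.p6) existed for 7 of the 9 genes. The 250 bases before the start were searched on both strands for CACGTG and CATGTG, hexamers of the E-box class that MITF binds, and for TAATCC, the core site of OTX factors; no match overlapped another. The stretch from 250 to 51 bases before the start is given, 5′ to 3′ on the gene's strand, with matches in capitals.
Kcnj13, chr1:87394780-87394979, minus strand: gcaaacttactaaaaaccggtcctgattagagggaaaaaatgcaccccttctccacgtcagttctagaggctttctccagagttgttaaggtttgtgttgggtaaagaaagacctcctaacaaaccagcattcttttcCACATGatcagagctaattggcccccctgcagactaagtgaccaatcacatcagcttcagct
Car14, chr3:95904736-95904935, minus strand: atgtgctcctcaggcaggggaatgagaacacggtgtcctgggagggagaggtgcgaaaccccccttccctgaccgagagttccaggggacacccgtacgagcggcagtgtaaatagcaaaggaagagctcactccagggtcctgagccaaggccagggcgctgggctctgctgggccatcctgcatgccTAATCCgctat
Best1, chr19:10001684-10001883, minus strand: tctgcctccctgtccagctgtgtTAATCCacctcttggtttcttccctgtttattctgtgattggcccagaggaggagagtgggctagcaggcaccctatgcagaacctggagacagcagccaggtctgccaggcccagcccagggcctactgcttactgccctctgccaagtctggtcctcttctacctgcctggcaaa
Kcnj13 held CATGTG as its reverse complement, beginning 112 bases before the start. Car14 held TAATCC 61 bases before the start and Best1 held it 227 bases before the start. Clcn2, Atp1b1, Slc4a5 and Aqp1 had no match in this window. Over all 32851 promoter entries, 6.02% held CACGTG, 12.3% CATGTG and 6.25% TAATCC, and 22.9% held at least 1 of them, against 3 of 7 here. A match is a description of the letters and not of binding.

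Other genes of the same transport classes were taken from a list of 84, of which 75 passed the filter on low counts. None reached an adjusted p under 0.05 (edgeR). At an unadjusted p-value under 0.05, 11 were higher and 4 lower in AAV-GSTA4 (backgrounds of 5.27% and 6.63% of all genes). Both directions together gave 15 genes, 8 without AAV-GSTA4 replicate 3. Their median log2 fold change was -0.27, against -0.07 for all genes, and 26 of 75 were positive, against 44.6% of all genes.

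The bicarbonate and pH class, the largest with 24 genes tested, held 5 of the 11 higher genes, while 9 of the 24 had a positive log2 fold change and the class median was -0.17. Slc4a2, which encodes the chloride-bicarbonate exchanger AE2, was at 178, 177 and 137 CPM in AAV-GFP and at 407, 181, 378 and 307 CPM in AAV-GSTA4, without overlap, a log2 difference of 0.96 ± 0.31 (SE). Slc9a3r1, which encodes the microvillar scaffold NHERF1, went from a mean of 178 ± 23.0 CPM (SD, n = 3) to 326 ± 97.7 CPM (SD, n = 4), and Car11, a carbonic anhydrase-related protein gene, from 12.1 ± 1.09 to 21.9 ± 3.26 CPM. Their log2 fold changes were 0.87 ± 0.30 and 0.86 ± 0.24 (SE), and the edgeR adjusted p of Slc4a2, Slc9a3r1 and Car11 was 0.363, 0.370 and 0.363. In Slc4a2 and Slc9a3r1, AAV-GSTA4 replicate 2 lay near or within the AAV-GFP range, as it did for Clic6 and Slc4a5.

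Car2, which encodes the abundant cytosolic carbonic anhydrase, had the smallest p-value of the 75 and was lower. It was at 292, 273 and 392 CPM in AAV-GFP and at 220.1, 148, 125 and 100.5 CPM in AAV-GSTA4, without overlap, a log2 difference of -1.10 ± 0.30 (SE; edgeR adjusted p = 0.363). Ano2, which encodes a calcium-activated chloride channel of photoreceptor terminals, and Kcnj14, which encodes the potassium channel Kir2.4, had log2 fold changes of -1.07 ± 0.38 and -1.05 ± 0.40 (SE; edgeR adjusted p = 0.373 and 0.377). Both were highest in AAV-GFP replicate 3, at 60.7 and 415 CPM, the library with the highest rod sum; the part of rod RNA in these values was not tested.

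All 10 other pump genes tested had a negative log2 fold change, with a median of -0.67, where 44.6% of all genes had a positive one. None of the 10 reached an unadjusted p-value under 0.05 in edgeR's test. The class includes Fxyd genes, which encode regulators of the pump and not its alpha or beta subunits. Of these, Fxyd2, Fxyd3 and Fxyd7 were very low, at means of 2.64, 2.46 and 1.70 CPM in AAV-GFP. Among water channels, Mip, the lens fibre aquaporin, was at 465 CPM in AAV-GSTA4 replicate 2 and at 2.06 to 23.1 CPM in the other 6 libraries. That is the library with the high lens marker sum, and Mip is 1 of the 11 genes counted as higher above. The other potassium channel genes had a median log2 fold change of -0.89 over 15 tested, whereas Kcnj13 was at 0.74. Some of them were very low, such as Kcnk2 at a mean of 0.576 CPM in AAV-GFP and 0.304 CPM in AAV-GSTA4. Kcnj13 itself was at 0.34 with RPE-marker scaling and at -0.14 with the rod marker score as covariate.

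**Figure D4:**
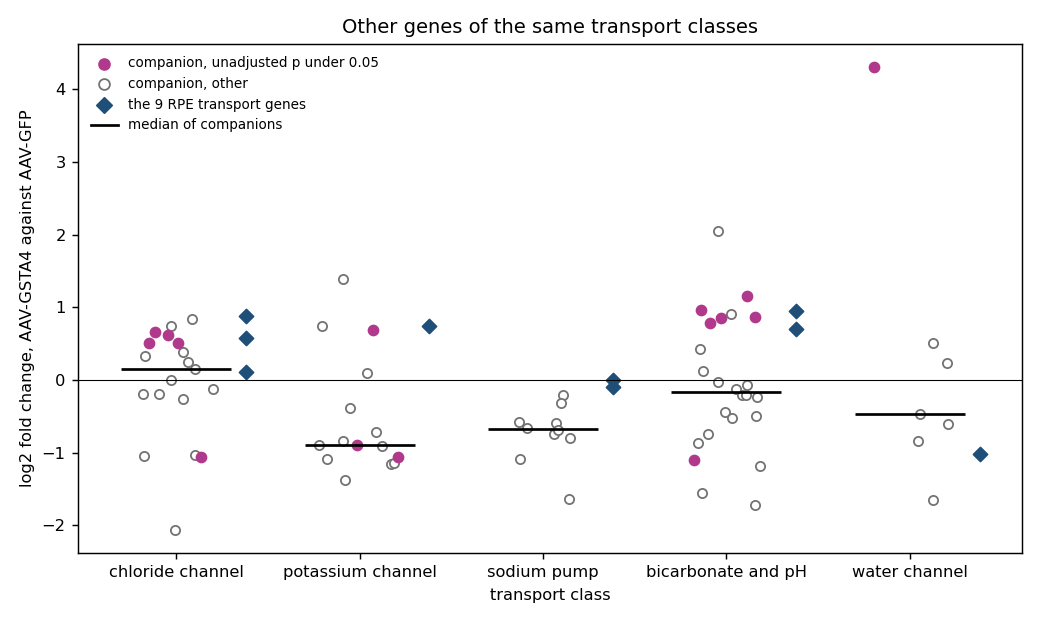
Log2 difference of AAV-GSTA4 minus AAV-GFP (y axis) for 75 other transport genes by class (x axis); filled circles had an unadjusted p-value under 0.05 in edgeR's test, black lines are class medians and blue diamonds are the 9 RPE transport genes. Chloride and bicarbonate genes, 19 and 24 of the 75 with class medians of 0.14 and -0.17, hold 9 of the 11 filled circles above 0. All 10 genes of the pump class, Fxyd regulators among them, lie below 0.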

How the data were processed

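RNA-seq of aged mouse RPE was analysed in 7 libraries, 3 AAV-GFP and 4 AAV-GSTA4. The labels' protocols describe low-input full-length cDNA from polyadenylated RNA, cut by transposase; they name no molecular identifiers, so counting intervals cover counting error only. The authors deposited raw read counts per gene symbol. The submitters' processing notes name STAR 2.7.1a, featureCounts 1.6.2, and mouse and human builds without roles; annotation, strand setting and multi-mapping rule are not given in the sources used here. Gene positions and exon lengths are from GENCODE (GRCm38).

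The test was edgeR 4.0.16 in R 4.3.3 (quasi-likelihood, robust, TMM scaling, default expression filter, group as the only factor), with Benjamini-Hochberg adjustment over all genes. SE is the log2 fold change divided by the root of F. Log2 CPM used a prior count of 2. Exact permutation tests were two-sided over 35 relabellings. Alternatives used limma 3.58.1, DESeq2 1.42.0, other scalings, filters, blocks, covariates and left-out libraries. Members and lists were chosen with earlier results of these data known. The genes named were the 9 members, the 3 companions with the smallest p in each direction and the 3 genes nearest to the mean profile; Mip and neighbours of single members were named after their values had been seen.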

Additional observations from a re-analysis of the deposited data

Results flagged for a closer look

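Of 28 values examined for an isolated library among the 4 AAV-GSTA4 libraries, 1 stood out, where chance gives about 5% of groups. It was Car14 relative to the RPE markers, at 1.99, 1.47, 1.98 and 1.98 on the log2 scale in replicates 1 to 4. The gap of replicate 2 to its nearest neighbour was 0.991 of the whole range. The same library had the highest lens marker sum, 132759 CPM; its part in this value was not tested.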

How the results depend on the processing

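No member passed the adjusted threshold under any alternative run. The number of all genes past it, 0 in edgeR, was 201 in DESeq2, 0 in limma-voom with quality weights and 146 with robust variances, the last added after seeing the data; it was 1 with a replicate block by title number or by library number (hGSTA4 in both), 1 with the rod marker score as covariate (Cyp2f2) and 0 to 1 with a library left out. Same-numbered libraries did not deviate together (correlations -0.09 to 0.01 by title number), so the replicate block pairs numbers only; 0 of 3 AAV-GFP libraries correlated best with their own title number. Members at an unadjusted p under 0.05 numbered 2, against 1 with RPE-marker scaling or the rod covariate, 4 in DESeq2 and in limma-voom, and 1 to 5 with a library left out; over all genes that threshold took 11.9% in edgeR, 14.5% in DESeq2, 21.8% in limma-voom and 6.88% to 12.7% with a library left out. The members' median, 0.58, was 0.010 with RPE-marker scaling and 0.15 with the rod covariate, which is tied to group because rod sums did not overlap. Companions at that threshold numbered 15, against 6 with the title block, 25 in limma-voom, 23 with robust variances and 8 to 17 with a library left out. Best1 was -0.13 with library totals, -0.38 with RPE-marker scaling, -0.081 with the title block, -0.61 with the rod covariate, -0.13 with a Y-linked covariate, -0.038 in both limma-voom fits and -0.21 to 0.44 with a library left out. Atp1b2 was -0.39, -1.02 and -0.021 with library totals, RPE-marker scaling and at least 10 counts in every library, and -0.26 to 0.62 with a library left out; Atp1b1 was -0.30 to 0.11 and Kcnj13 -0.14 with the rod covariate. Relative to the RPE markers, leaving out a library gave -0.23 to 0.25 for Clic6, -1.05 to 0.42 for Atp1b2 and -0.087 to 0.31 for Slc4a5, which was -0.18 without the pigment genes. The log2 rod difference was -1.45 to -0.77 with a library left out, where the design cannot reach 0.05. The cause of these shifts was not tested.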
